A study of Homo sapiens with 6 samples.

Results

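The genes described here are HILPDA, ADM, NDRG1, SLC2A1, ALDOC and ENO2, 6 hypoxia target and glycolysis genes chosen by name from the 2778 features of a deposited table of raw counts. All 6 were found in the table, and all 6 passed the filter on low counts. RNA was measured in 6 libraries of A375, an established human melanoma cell line: 3 of A375 cells overexpressing cytoglobin (CYGB-overexpression) and 3 of the wildtype line (WT). Both groups were untreated and were grown in the same serum-containing medium in an ordinary 5% CO2 incubator, and no label names low oxygen. The labels give no vector, promoter, clone or empty-vector control for the overexpressing cells, and name no separate cultures behind the replicates. The p-values therefore cover the variation among these 6 libraries alone, and that variation may be technical.

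Cells meet a shortage of oxygen through the hypoxia-inducible factors (HIFs), pairs of an oxygen-regulated alpha subunit such as HIF1A or EPAS1 and the constant partner ARNT. With oxygen present, prolyl hydroxylases mark the alpha subunit for destruction by the VHL ubiquitin ligase; without it the pair binds the letters ACGTG or GCGTG in its target genes and raises genes of glucose uptake, glycolysis, blood vessel tone and lipid storage. In melanoma, as in other tumours, many of the same genes are also set by growth signalling, MYC and nutrient supply. Among the 6 genes, ADM encodes the secreted vasodilator peptide adrenomedullin, SLC2A1 the glucose transporter GLUT1, ALDOC and ENO2 the glycolytic enzymes aldolase C and enolase gamma (neuron-specific enolase), HILPDA a small lipid droplet protein that inhibits the triglyceride lipase PNPLA2, and NDRG1 a cytoplasmic protein induced by hypoxia and other stresses.

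The genes were grouped partly as HIF targets, and no window is shown for HILPDA or NDRG1, which also fell. For the 4 genes matched in the RefSeq promoter table (GRCh38.p14), the 250 bases before the RefSeq start are shown. Each is written 5′ to 3′ on the gene's own strand, with capitals marking ACGTG (on the other strand this reads as CACGT) and likewise marking GCGTG (on the other strand, CACGC). The windows are chr11:10304823-10305072 (plus strand) for ADM, chr17:28576896-28577145 (minus strand) for ALDOC, chr12:6914330-6914579 (plus strand) for ENO2 and chr1:42958869-42959118 (minus strand) for SLC2A1; all 4 lie inside the longer gene spans of GENCODE, which start farther upstream.
ADM: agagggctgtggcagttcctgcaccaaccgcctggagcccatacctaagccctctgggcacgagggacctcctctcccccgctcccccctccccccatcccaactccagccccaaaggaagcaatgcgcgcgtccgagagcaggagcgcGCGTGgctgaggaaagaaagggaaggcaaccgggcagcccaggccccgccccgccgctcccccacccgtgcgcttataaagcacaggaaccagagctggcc
ALDOC: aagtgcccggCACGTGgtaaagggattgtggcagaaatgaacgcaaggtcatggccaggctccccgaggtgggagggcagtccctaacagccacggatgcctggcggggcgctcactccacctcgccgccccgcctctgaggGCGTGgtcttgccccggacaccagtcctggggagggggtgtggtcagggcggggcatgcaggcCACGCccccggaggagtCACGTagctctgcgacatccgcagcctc
ENO2: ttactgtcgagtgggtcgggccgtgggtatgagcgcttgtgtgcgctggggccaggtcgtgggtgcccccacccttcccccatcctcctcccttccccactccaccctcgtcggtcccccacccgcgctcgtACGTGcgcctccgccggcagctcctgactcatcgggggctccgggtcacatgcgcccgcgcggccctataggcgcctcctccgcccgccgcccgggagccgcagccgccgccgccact
SLC2A1: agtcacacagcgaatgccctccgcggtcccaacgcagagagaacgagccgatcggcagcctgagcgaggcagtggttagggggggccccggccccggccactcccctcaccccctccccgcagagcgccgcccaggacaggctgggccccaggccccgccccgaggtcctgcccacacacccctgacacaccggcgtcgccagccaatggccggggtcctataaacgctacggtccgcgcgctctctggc

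Counting back from the start, ADM held GCGTG at -101 to -97, and ENO2 held ACGTG at -118 to -114. ALDOC held ACGTG at -239 to -235 and, on the opposite strand, at -240 to -236 and at -28 to -24. Its first pair overlaps and forms the palindrome CACGTG, and GCGTG lay at -108 to -104 and, on the opposite strand, at -45 to -41. No match was found in the SLC2A1 window, which says only that these letters are not in these 250 bases. Searched on both strands, ACGTG was held by 18.7% of 27305 promoter windows of that length, GCGTG by 31.9% and CACGTG, which contains ACGTG, by 6.49%. Among the promoters matched to features of the table, ACGTG was held by 16.2% of 997 windows of features lower in CYGB-overexpression and by 18.4% of 343 windows of features higher in it. For GCGTG the shares were 37.5% of the same 997 and 40.2% of the same 343. A match is a run of letters and not a binding site. The part of these letters in the direction of change was not tested.

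The table bounds what can be read from these genes. No feature had a log2 ratio of the group means between -0.995 and 0.995 after scaling, so genes that changed by less than about 2-fold in these same libraries are missing from it, and a listed gene was all but assured of a call. The groups were set level by placing the centre of that empty band at 0. An alternative, edgeR's TMM (trimmed mean of M-values) over the whole table, takes most listed features as not differing. Column totals ran from 1533260 to 1897052 counts in the CYGB-overexpression libraries and from 2025159 to 2801576 in the WT libraries, and are sums over the selected features, not library depths. CYGB itself, the check of the labels, had 22518, 20740 and 26267 counts in CYGB-overexpression replicates 1 to 3, against 33, 47 and 37 in WT replicates 1 to 3. CYGB-overexpression replicate 1 stood apart, with features 0.446 log2 units (median absolute difference) from the mean of replicates 2 and 3, which differed from each other by 0.215. Of 15 melanocyte markers, 5 were in the table, and their summed normalized count was 2832 to 3317 in the CYGB-overexpression libraries and 6825 to 7466 in the WT libraries. All 4 of these that were tested were lower in the main scaling; with TMM over the whole table TYRP1 stood at -1.35, EDNRB at -0.30, RAB38 at -0.215 and S100A1, the most abundant of them, at 0.09 on the log2 scale, past no threshold (edgeR adjusted p = 0.124, 0.0557, 0.251 and 0.552). DCT, the melanin enzyme dopachrome tautomerase, was at 0 counts in the CYGB-overexpression libraries, against 2 to 15 in the WT libraries. Of the markers of other cell types, LYZ, a myeloid marker, had a log2 fold change of 2.49 and KRT14, a keratinocyte marker, one of 1.88, with mean normalized counts of 289 ± 60.1 and 62.0 ± 8.90 in CYGB-overexpression, against 51.3 ± 6.69 and 16.6 ± 3.52 in WT. The part of these markers in the results was not tested, and markers outside the table were not analysed here.

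Of the 6 genes, HILPDA, ADM, NDRG1, ALDOC and ENO2 fell and SLC2A1 rose in CYGB-overexpression (edgeR quasi-likelihood test, Benjamini-Hochberg adjusted over 2465 features, threshold 0.05). The median log2 fold change of the 6 was -1.62, against -1.30 over all features tested. Over the table, 99.8% of the features tested were called, 71.5% as lower and 28.3% as higher, so 6 of 6 called and 5 of 6 lower lie near what the table gives for any of its genes. The groups did not overlap for any of the 6 genes, as for 98.8% of the features tested. The split into 5 lower and 1 higher was the same without CYGB-overexpression replicate 1, and no gene changed sign under 15 alternatives. How many stay called depends on the level set between the groups: TMM over the whole table, which moves all log2 fold changes up by a median of 1.20, left HILPDA lower and SLC2A1 higher, and ADM, NDRG1, ALDOC and ENO2 below 0 without a call. RNA of a bulk culture cannot tell fewer expressing cells from less RNA per cell.

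**Figure D1:**
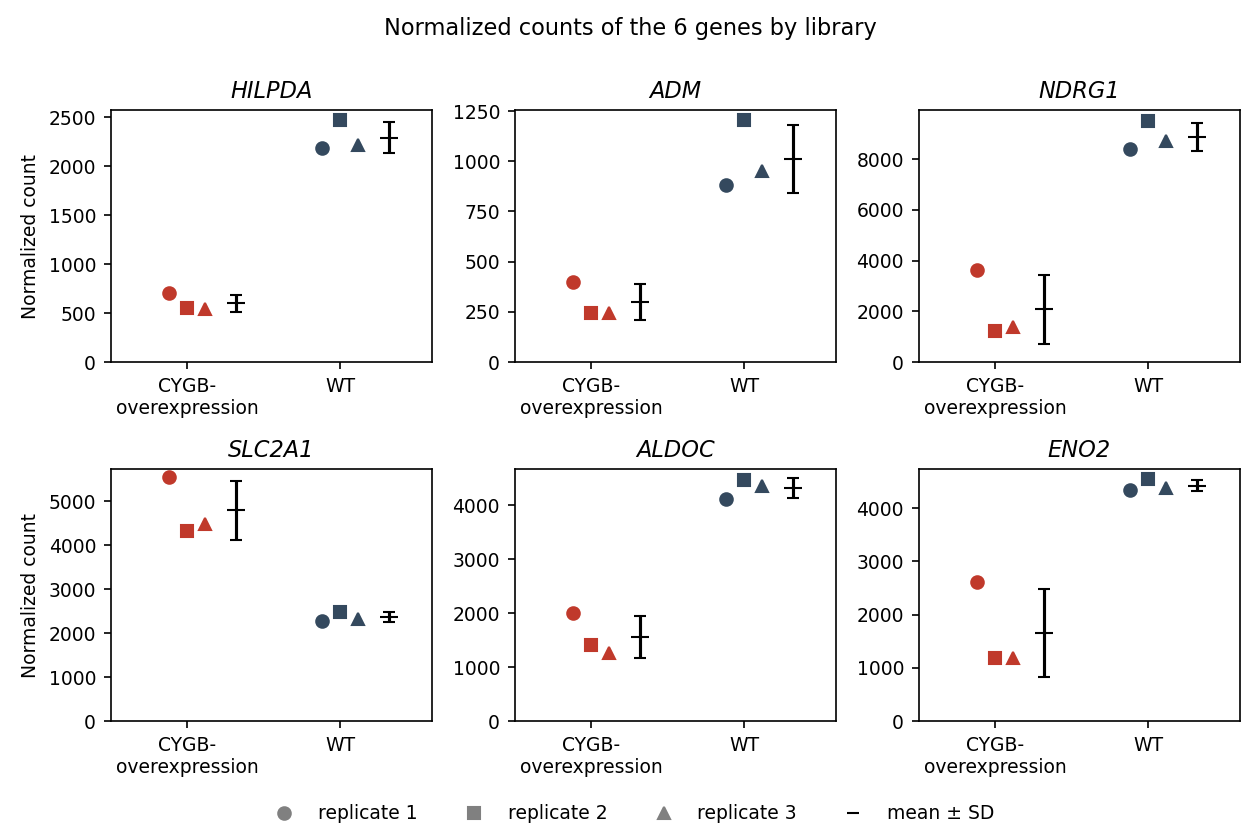
Normalized counts (counts divided by the library's relative size) of the 6 genes in each library; each panel has its own vertical axis from 0, symbols mark the replicate number, and bars give the mean ± SD of 3 libraries. All CYGB-overexpression libraries lie below all WT libraries except for SLC2A1, where they lie above, and CYGB-overexpression replicate 1 is the highest of its group in every panel.

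HILPDA (ENSG00000135245, chr7:128455849-128458418, plus strand), the lipid droplet protein, had normalized counts of 701, 553 and 542 in CYGB-overexpression replicates 1 to 3, against 2186, 2471 and 2216 in WT replicates 1 to 3. The CYGB-overexpression libraries lay close together and far below every WT library. The means were 598 ± 88.9 in CYGB-overexpression and 2291 ± 156 in WT (SD, n = 3 each), which is 3.83-fold lower in CYGB-overexpression. The log2 fold change was -1.94 (SE 0.13; edgeR adjusted p = 5.58e-06), and it passed the threshold under each of the 15 alternatives. Its size depends on the scaling, at -0.74 under TMM over the table, -1.07 under upper-quartile factors and -0.73 with DESeq2's own size factors. GENCODE places exons of the transcripts AC010655.2 and AC010655.4 on the same strand over 186 and 175 bases of HILPDA exon, and reads there cannot be assigned to 1 gene.

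ADM (ENSG00000148926, chr11:10304680-10307397, plus strand), the adrenomedullin gene, had the lowest level per kb of exon of the 6 in both groups, with normalized counts of 401, 247 and 245 in CYGB-overexpression replicates 1 to 3, against 883, 1204 and 952 in WT replicates 1 to 3. All CYGB-overexpression libraries were below all WT libraries, and replicate 1 stood highest among them. Its mean was 298 ± 89.5 in CYGB-overexpression and 1013 ± 169 in WT, 3.41-fold lower in CYGB-overexpression (log2 fold change -1.77, SE 0.22; edgeR adjusted p = 9.02e-05). Without CYGB-overexpression replicate 1 the log2 fold change was -2.04. Under TMM over the table it was -0.57 and was not called (edgeR adjusted p = 0.0612).

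NDRG1 (ENSG00000104419, chr8:133237171-133302022, minus strand), the stress-induced cytoplasmic protein, had the largest fold of the 6 with all libraries and the main scaling. Its SD of normalized counts was the highest of the 6 in both groups. Beside its mean, the WT SD was smaller than that of ADM (553 on 8879, against 169 on 1013). SLC2A1 had a larger fold under TMM over the table, upper-quartile factors and DESeq2's own size factors, and HILPDA without CYGB-overexpression replicate 2. Normalized counts were 3632, 1234 and 1364 in CYGB-overexpression replicates 1 to 3, against 8421, 9493 and 8724 in WT replicates 1 to 3. Replicate 1 of CYGB-overexpression held 2.80-fold the mean of the other 2 and still lay below every WT library. The means were 2077 ± 1350 in CYGB-overexpression and 8879 ± 553 in WT, 4.28-fold lower in CYGB-overexpression. The log2 fold change was -2.10 (SE 0.43, edgeR adjusted p = 0.00309) and became -2.77 (SE 0.07) without CYGB-overexpression replicate 1. That fit has 2 CYGB-overexpression libraries, and its SE leaves out the spread that replicate 1 brings. Adjusted over all 58780 annotated genes, NDRG1 lost its call (adjusted p = 0.0736).

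SLC2A1 (ENSG00000117394, chr1:42925375-42959176, minus strand), the GLUT1 glucose transporter, was the only one of the 6 that was higher. Its normalized counts were 5554, 4315 and 4490 in CYGB-overexpression replicates 1 to 3, against 2274, 2486 and 2317 in WT replicates 1 to 3, and every CYGB-overexpression library lay above every WT library. The means were 4786 ± 671 in CYGB-overexpression and 2359 ± 112 in WT, 2.03-fold higher in CYGB-overexpression (log2 fold change 1.02, SE 0.12; edgeR adjusted p = 6.23e-05). That value lies at the edge of the empty band, at place 667 of 697 higher features by size of fold, and was 0.90 without CYGB-overexpression replicate 1. The rise was called under all 15 alternatives and was 2.22 on the log2 scale under TMM over the table. The scalings that reset the level between the groups all moved log2 fold changes up, by medians of 0.344 to 1.21. They could only enlarge a rise, so the calls under them do not test it. SLC2A1-AS1, an RNA on the opposite strand that shares 128 exon bases, had 6, 7 and 3 counts in CYGB-overexpression replicates 1 to 3, against 14, 31 and 15 in WT replicates 1 to 3. AC099795.1, a same-strand RNA outside the table, shares 112 exon bases with SLC2A1. With the strand setting of the counting unknown, reads of the shared bases cannot be assigned. The counts of SLC2A1-AS1 are few beside those of SLC2A1, but they do not bound the shared reads.

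ALDOC (ENSG00000109107, chr17:28573115-28577264, minus strand), aldolase C, had normalized counts of 1998, 1404 and 1262 in CYGB-overexpression replicates 1 to 3, against 4109, 4475 and 4347 in WT replicates 1 to 3. The WT libraries lay close together, and the CYGB-overexpression libraries were all lower. Its mean was 1555 ± 390 in CYGB-overexpression and 4310 ± 186 in WT, 2.77-fold lower in CYGB-overexpression (log2 fold change -1.47, SE 0.17; edgeR adjusted p = 5.69e-05). Without CYGB-overexpression replicate 1 the log2 fold change was -1.69, and under TMM over the table it was -0.27 without a call (edgeR adjusted p = 0.238). The antisense RNA AC005726.4, which shares 296 exon bases with ALDOC, had 27, 10 and 26 counts in CYGB-overexpression replicates 1 to 3, against 59, 75 and 42 in WT replicates 1 to 3, beside 1257 to 1873 counts of ALDOC in CYGB-overexpression and 3736 to 5662 in WT.

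ENO2 (ENSG00000111674, chr12:6913745-6923698, plus strand), enolase gamma, had normalized counts of 2611, 1183 and 1178 in CYGB-overexpression replicates 1 to 3, against 4351, 4543 and 4382 in WT replicates 1 to 3. CYGB-overexpression replicate 1 lay between the other libraries of its group and the WT libraries, at 2.21-fold the mean of replicates 2 and 3. The means were 1657 ± 826 in CYGB-overexpression and 4425 ± 103 in WT, 2.67-fold lower in CYGB-overexpression (log2 fold change -1.42, SE 0.32; edgeR adjusted p = 0.00375). Without replicate 1 of CYGB-overexpression the log2 fold change was -1.91 (SE 0.06). That fit rests on replicates 2 and 3 of the group, and its SE leaves out the spread that replicate 1 brings. The call was lost under TMM over the table (-0.215, adjusted p = 0.636), under upper-quartile factors (-0.55, adjusted p = 0.149) and when adjusted over all annotated genes (adjusted p = 0.0895).

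**Figure D2:**
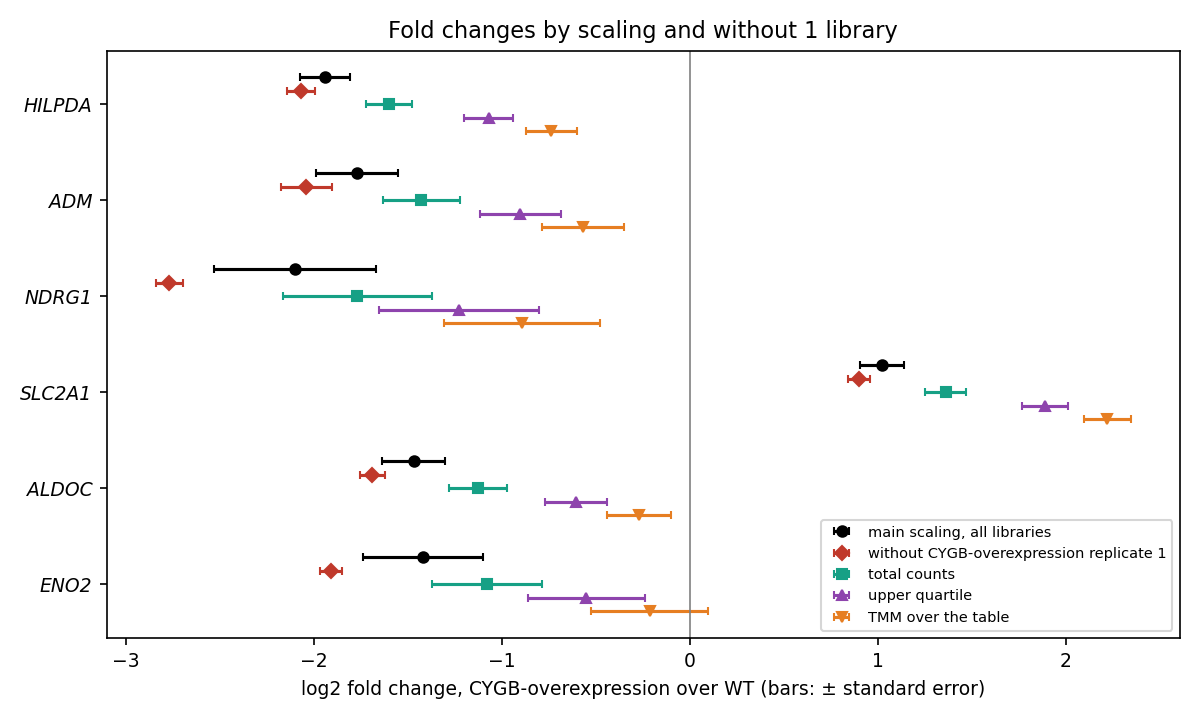
Log2 fold change of each gene, CYGB-overexpression over WT (horizontal axis; bars ± standard error), with all libraries under the main scaling, without CYGB-overexpression replicate 1, and under 3 other scalings. SLC2A1 lies above 0 and the other 5 genes below 0 in each fit drawn, while the size moves with the scaling, for ENO2 down to -0.215 under TMM over the table. Bars of the fit without CYGB-overexpression replicate 1 leave out the spread that this library brings.

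CYGB-overexpression replicate 1 was the highest library of its group for all 6 genes. Among all features called lower, that library was the highest of its group for 34.6%, and over the features tested its log2 difference from the mean of replicates 2 and 3 had quartiles of -0.468 and 0.425. That difference was 1.48 for NDRG1, 1.15 for ENO2, 0.704 for ADM, 0.586 for ALDOC, 0.357 for HILPDA and 0.336 for SLC2A1, so NDRG1, ENO2, ADM and ALDOC lay above the upper quartile and HILPDA and SLC2A1 within the quartiles. For the 5 lower genes replicate 1 was therefore the library nearest to WT, and for SLC2A1 the one farthest from it. Replicates 2 and 3 differed by at most 0.153 log2 units for any of the 6. CYGB had normalized counts of 24020, 23160 and 23870 in CYGB-overexpression replicates 1 to 3. The part of that library's CYGB level, depth or quality in these differences was not tested.

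Levels were also compared between the genes, as normalized counts per kb of exon (union of GENCODE release 29 exons, which need not match the transcripts that A375 makes). In CYGB-overexpression libraries SLC2A1 had the highest level, 1010 ± 142 per kb, and was above ALDOC in 3 of 3 libraries. The other 5 followed at 531 ± 133 for ALDOC, 387 ± 193 for ENO2, 289 ± 42.9 for HILPDA, 211 ± 137 for NDRG1 and 110 ± 32.9 for ADM, and the range over libraries of each overlapped that of the next. Compared within each library, ALDOC was above ENO2, ENO2 above HILPDA and NDRG1 above ADM in 3 of 3, while HILPDA was above NDRG1 in 2 of 3. In WT libraries the order was ALDOC at 1470 ± 63.4 per kb, HILPDA at 1110 ± 75.7, ENO2 at 1030 ± 24.1, NDRG1 at 904 ± 56.3, SLC2A1 at 499 ± 23.7 and ADM at 373 ± 62.1. There the ranges of HILPDA and ENO2 overlapped and those of the other neighbours did not, and within each library every gene was above the next in 3 of 3. SLC2A1 thus took place 1 of the 6 in CYGB-overexpression and place 5 in WT.

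**Figure D3:**
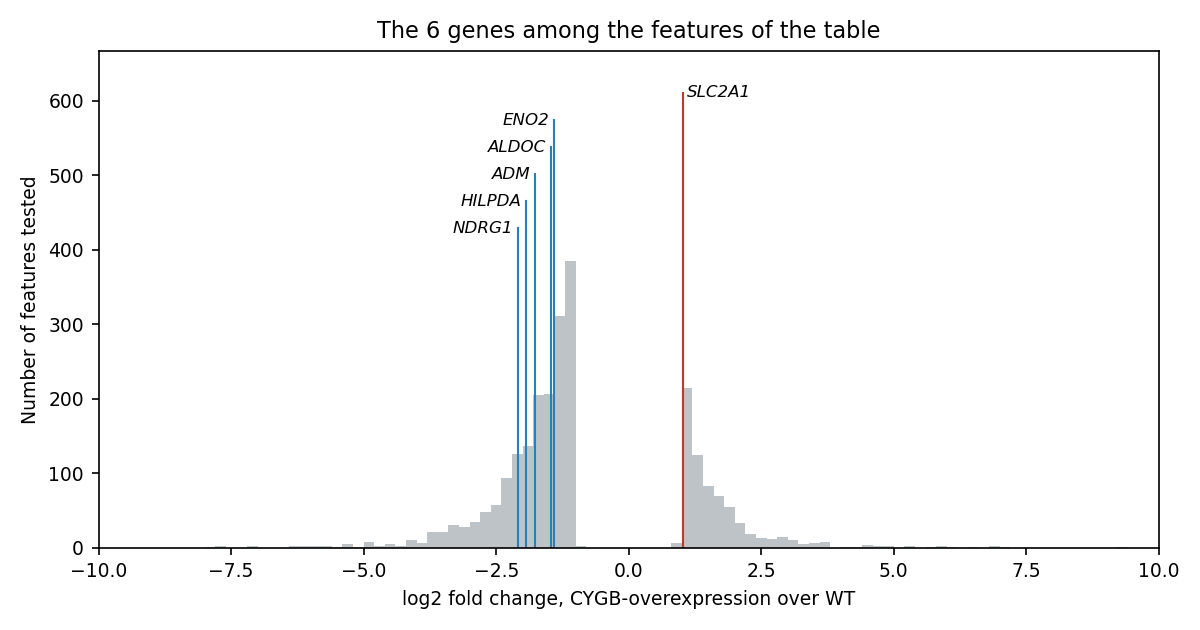
Distribution of the log2 fold change, CYGB-overexpression over WT (horizontal axis), over the 2465 features tested (vertical axis, number of features in steps of 0.2), with the 6 genes as lines whose heights carry no value. The empty centre is the selection of the table, NDRG1 at -2.10 and HILPDA at -1.94 lie within the lower arm, and SLC2A1 at 1.02 lies at the inner edge of the higher arm.

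Within the table the 5 lower genes were of ordinary fold. By size of fold among 1762 lower features, NDRG1 took place 441, HILPDA 559, ADM 682, ALDOC 987 and ENO2 1046; the median of all lower features was -1.58 on the log2 scale. They were abundant for the table: by summed mean normalized count, NDRG1 was at percentile 97.2 of the features tested, SLC2A1 96.1, ENO2 95.4, ALDOC 95.3, HILPDA 90.7 and ADM 83.3.

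The features whose pattern over the 6 libraries was most like each gene were found by Euclidean distance between centred log2 normalized counts, among 1059 named features with a mean of at least 100. For HILPDA they were GRAMD2B (distance 0.137), TMEM255A (0.187) and AF127577.4 (0.240), and for ADM ARFGEF3 (0.272), EFNA1 (0.303) and KLF7 (0.320). NDRG1 was nearest to RIPK4 (0.209), AL035541.1 (0.213) and NFKB2 (0.280). ALDOC had CHST11 (0.150), TIAM2 (0.175) and PIK3CD (0.181), and ENO2 had KYNU (0.0781), INAVA (0.102) and THBS2 (0.181). SLC2A1 was nearest to CDC6 (0.0689), HMGN2 (0.0788) and RRM2 (0.0831). Their log2 fold changes were 1.04, 1.05 and 1.06, beside 1.02 for SLC2A1. Among the 6 genes themselves, HILPDA and ADM were the closest pair (0.391), and NDRG1 and ALDOC the farthest of the lower genes (1.22). All these distances rest on 6 libraries in 2 groups, so features of like fold lie close, and a shared function was not tested.

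The wider pathway was read from 7 lists holding 174 gene symbols, older symbols included. Of these, 24 genes were in the table and all 24 were tested; 8 rose and 16 fell, beside 28.3% higher and 71.5% lower over the table. Without CYGB-overexpression replicate 1 the counts were again 8 and 16, and with TMM over the whole table they were 8 and 6. Each list gives few genes, and those outside the table were not analysed here.

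Of 20 symbols of oxygen-sensing regulators, only EPAS1, the alpha subunit HIF-2 alpha, was in the table. Its normalized counts were 244, 240 and 235 in CYGB-overexpression replicates 1 to 3, against 459, 523 and 570 in WT replicates 1 to 3. It fell 2.16-fold (log2 fold change -1.11, SE 0.13; edgeR adjusted p = 7.12e-05) but turned to 0.09 under TMM over the table and 0.10 with DESeq2's own size factors. Of 50 symbols of other HIF targets, 7 were in the table, of which 4 fell and 3 rose, with a median log2 fold change of -1.24. KDR, a receptor for vascular endothelial growth factor, had the largest fold among them, with 10, 8 and 12 counts in CYGB-overexpression replicates 1 to 3, against 115, 159 and 107 in WT replicates 1 to 3 (log2 fold change -3.56). The nuclear receptor RORA had a log2 fold change of -2.39, the nuclear envelope protein SPAG4 of -1.51 and the clock repressor BHLHE41 of -1.24. SPAG4 and BHLHE41 were not called under TMM over the table (edgeR adjusted p = 0.325 and 0.906).

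On the higher side, TFRC, the transferrin receptor that brings iron into cells, averaged 13010 ± 1130 normalized counts in CYGB-overexpression and 4736 ± 308 in WT (log2 fold change 1.46, SE 0.10; edgeR adjusted p = 5.58e-06). AK4, a mitochondrial adenylate kinase, had a log2 fold change of 1.06. STC1, the secreted glycoprotein stanniocalcin, had normalized counts of 1957, 779 and 737 in CYGB-overexpression replicates 1 to 3, against 463, 551 and 528 in WT replicates 1 to 3. As with NDRG1 and ENO2, replicate 1 stood apart: the STC1 log2 fold change was 1.17 with it and 0.56 without it, and the call was lost when adjusted over all annotated genes (edgeR adjusted p = 0.469). Of these 7 HIF targets, 3 were called higher and 2 lower under TMM.

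Glucose genes other than ALDOC, ENO2 and SLC2A1 were few. Of 28 other glycolytic enzyme symbols, PGAM2, the muscle phosphoglycerate mutase, fell (log2 fold change -2.80) and HKDC1, a hexokinase-like enzyme, rose (1.16). PGAM2 had 10, 18 and 14 counts in CYGB-overexpression replicates 1 to 3, against 86, 135 and 95 in WT replicates 1 to 3. Of 22 regulators of glycolysis and pyruvate entry, 4 were in the table. TXNIP, which drives the internalization of GLUT1, had a log2 fold change of -5.14, and its relative ARRDC4 of -2.78. MLXIPL, a glucose-responsive transcription factor of the family that induces both, had -1.71, which was not called under TMM over the table (-0.51, edgeR adjusted p = 0.266). PDP1, the phosphatase that activates pyruvate dehydrogenase, rose, with a log2 fold change of 1.35.

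Both other glucose transporters in the table were scarce and fell while SLC2A1 rose. SLC2A4, the insulin-responsive GLUT4, had 8, 15 and 20 counts in CYGB-overexpression replicates 1 to 3, against 55, 52 and 39 in WT replicates 1 to 3 (log2 fold change -1.70), and SLC5A2, a sodium-coupled transporter, had one of -1.06. SLC2A4 was not called under TMM over the table, and SLC5A2 turned to 0.14; its call was also lost without WT replicate 1 (edgeR adjusted p = 0.0645). Of 22 symbols of gluconeogenesis, glycogen and the pentose phosphate path, PCK1, the cytosolic phosphoenolpyruvate carboxykinase, rose 10.7-fold, with 97, 148 and 194 counts in CYGB-overexpression replicates 1 to 3 against 13, 9 and 20 in WT replicates 1 to 3. PYGB, the brain glycogen phosphorylase, averaged 27540 ± 1320 normalized counts in CYGB-overexpression and 58410 ± 632 in WT (log2 fold change -1.08), a direction that turned to 0.12 under TMM over the table and under DESeq2's own size factors.

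Of 22 partners and relatives of ADM, HILPDA and NDRG1, 6 were in the table, with 2 higher and 4 lower. RAMP1, a partner of calcitonin-type receptors, had a log2 fold change of -1.22, and ADM2, the related peptide intermedin, of -2.05. CALCRL, RAMP2 and RAMP3 of the same list were not in the table. ADM5, a relative of ADM, rose (1.01). ADM2 ran against ADM within the CYGB-overexpression group: it had normalized counts of 40.5, 159 and 139 in CYGB-overexpression replicates 1 to 3, against 455, 478 and 470 in WT replicates 1 to 3. In lipid droplet biology, G0S2, like HILPDA an inhibitor of PNPLA2, had a log2 fold change of -2.42, and DGAT2, which makes triglyceride, of -1.38. PLIN4, a droplet coat protein, had 1.29 with overlapping groups and was not called by limma-voom or when adjusted over all annotated genes (adjusted p = 0.0573 and 0.460). It was also not called without CYGB-overexpression replicate 2 (log2 fold change 1.1, edgeR adjusted p = 0.0503) or replicate 3 (1.0, edgeR adjusted p = 0.0561). Under TMM over the table RAMP1 was at -0.03, DGAT2 at -0.18 and ADM2 at -0.85, none of them called (edgeR adjusted p = 0.911, 0.311 and 0.139).

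**Figure D4:**
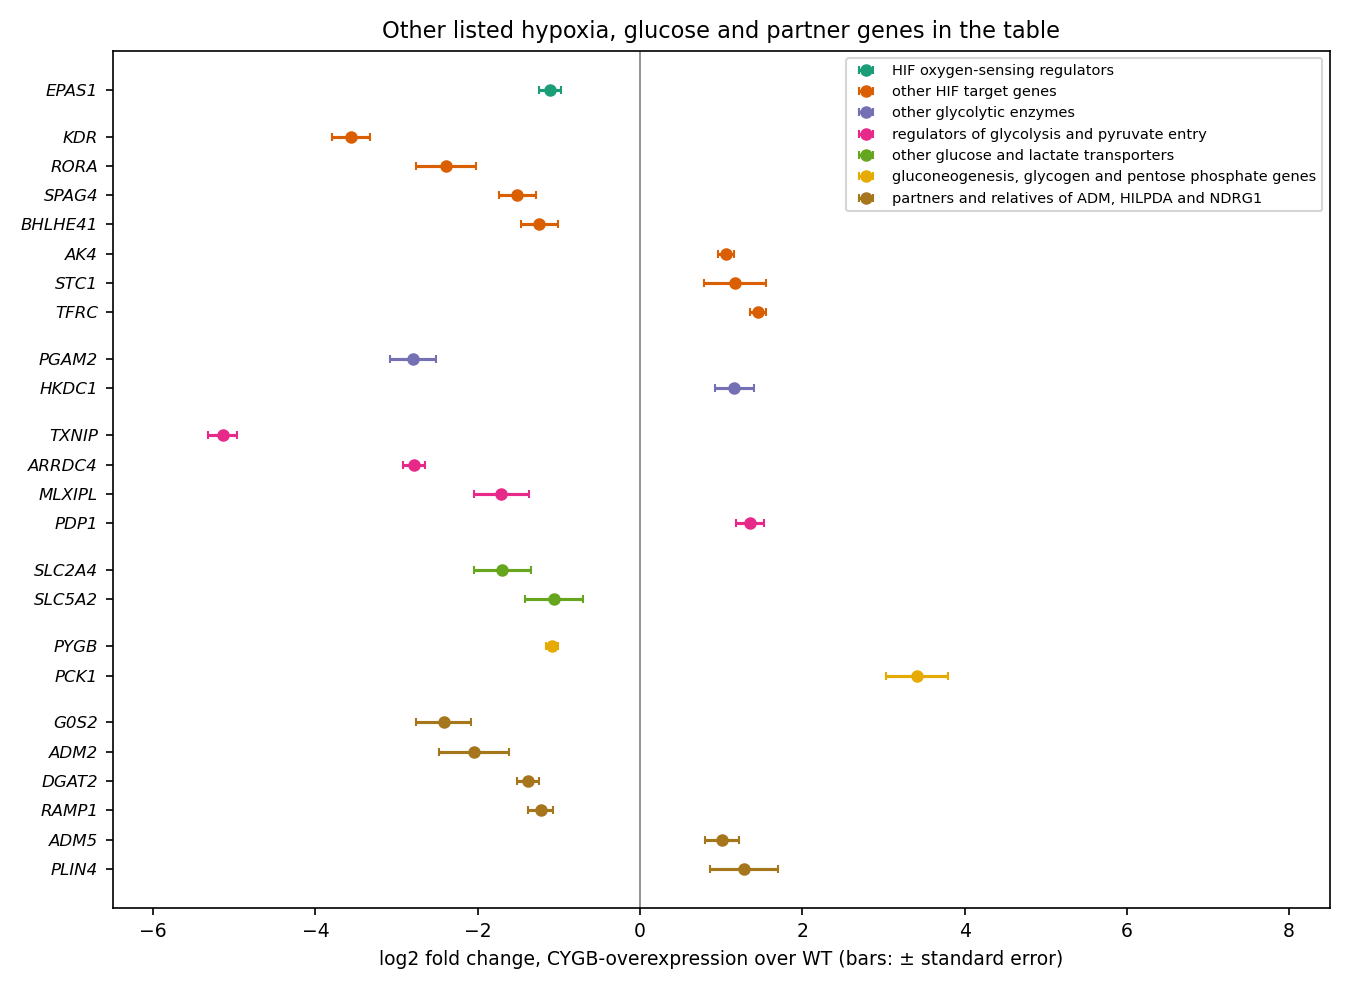
Log2 fold change, CYGB-overexpression over WT (horizontal axis; bars ± standard error), of the 24 listed genes in the table other than the 6, colored by list, under the main scaling. Values run from -5.14 for TXNIP to 3.42 for PCK1, and EPAS1, PYGB and SLC5A2, at -1.11, -1.08 and -1.06, turn above 0 under TMM over the table.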

How the data were processed

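Poly(A) RNA of 6 A375 libraries was measured. Trimmomatic 0.36, STAR 2.5.2b, Subread 1.5.2 with its featureCounts, and build GRCh38 are named in the submitters' processing notes. No annotation, strand setting or rule for selecting the features is stated there or in the labels. The table deposited by the authors holds raw counts per feature. GENCODE release 29 gave positions, exon lengths and overlaps, and RefSeq (GRCh38.p14) the promoter windows.

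Libraries were scaled by TMM inside each group, and CYGB-overexpression was placed against WT by putting 0 at the centre of the table's empty band of log2 ratios (1.99 wide). TMM across the table was an alternative, since most listed features differ. Normalized counts are counts divided by these relative sizes. Testing used the quasi-likelihood F test of edgeR (version 4.0.16, R 4.3.3; filterByExpr minimum count 10; robust; group as the only term), two-sided, Benjamini-Hochberg adjusted over 2465 features. Standard errors come from the F statistic. Leave-one-out fits kept the main relative sizes. Other fits used limma 3.58.1 (voom) and DESeq2 1.42.0. The scaling and tests were also run on simulated counts, as a check of the code only. For the tests most simulated features did not differ, unlike this table, and no result here rests on the outcome. The nearest features had a mean normalized count of at least 100 and were compared on log2(normalized count + 2). Named genes are the 6, the listed genes in the table, and the 3 nearest features of each, with features that overlap or neighbour the 6. The genes, lists, scaling and alternatives were chosen with earlier results of these data known. Some markers of other cell types are not reported here.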

Additional observations from a re-analysis of the deposited data

How the results depend on the processing

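Over 15 alternatives the 6 genes gave 90 values, of which 79 kept their direction and call, 11 kept their direction and lost the call, and 0 reversed. The count of features called, 2459 (697 higher, 1762 lower), was 1210 (745 and 465) under TMM over the whole table, 1623 (736 and 887) under upper-quartile factors and 1316 (813 and 503) with DESeq2 and its size factors. These scalings raise the median log2 fold change by 1.20, 0.862 and 1.21, and total counts by 0.344. Of the 6 genes, 2 stayed called under TMM over the table and 2 with DESeq2 and its size factors. Calls lost under TMM over the table were ADM at -0.569, NDRG1 at -0.894, ALDOC at -0.271 and ENO2 at -0.215; with DESeq2 and its size factors they were ADM at -0.557, NDRG1 at -0.877, ALDOC at -0.260 and ENO2 at -0.201. ENO2 was also lost under upper-quartile factors, at -0.551. Adjusted over all annotated genes, 1823 features stayed called and NDRG1 (-2.10) and ENO2 (-1.42) did not. Leaving out 1 library at a time gave 2510 to 2558 features called and 6 of the 6 genes, with log2 fold changes from -2.07 to -1.87 for HILPDA, -2.04 to -1.62 for ADM, -2.77 to -1.83 for NDRG1, 0.90 to 1.09 for SLC2A1, -1.69 to -1.34 for ALDOC and -1.91 to -1.22 for ENO2. The groups share replicate numbers, and deviations of same-numbered libraries correlated over features at -0.0121, -0.0660 and 0.00537. These values show no pairing by number, but with 3 libraries per group they cannot settle it. The fit with a replicate block called 2459 features and all 6 genes. In it NDRG1 stood at -2.29 (SE 0.332, against 0.432 in the main fit) and ENO2 at -1.53 (SE 0.251, against 0.317). The selected table gives no library depth, which limits what can be said of unlisted genes.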

Other observations

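Other listed features near the 6 genes were counted within 500000 bases on either side, on GRCh38. None lay near ADM or NDRG1, among 8 and 6 annotated protein-coding neighbours. HILPDA had IRF5, an interferon-linked transcription factor, which fell like HILPDA (log2 fold change -1.84). Around SLC2A1, which rose, all 4 listed features fell, beside 71.5% lower over the table. They were TIE1, an endothelial receptor kinase (-2.05), AL139289.2 (-1.95), SLC2A1-AS1 (-1.76) and CCDC30 (-1.22). ALDOC had 5 listed features near it, of which SGK494 (1.04) and AC005726.1 (1.18) were higher, AC005726.4 (-1.40) and AC015917.2 (-1.73) lower, and PYY2 was not tested. ENO2 had 7, of which LAG3 (2.21), GNB3 (1.72) and C1RL-AS1 (1.31) were higher and C1S (-2.19), C1R (-1.48), C1RL (-1.12) and LRRC23 (-1.10) lower. These are values of the same edgeR fit under the main scaling, given as a description of position only; TMM over the table moves log2 fold changes by a median of 1.20, about as much as the values of CCDC30, C1RL and LRRC23.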
